A study of Mus musculus with 12 samples.

Results

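The 40 genes described here encode the autophagy machinery, the FoxO transcription factors and the lysosomal and mTOR proteins that govern it. They were taken by gene symbol from the 22548 genes measured, and all 40 were found. Expression was measured by RNA-seq in 12 samples of long-term hematopoietic stem cells (HSCs) of C57BL/6 mice, sorted by surface markers from bone marrow and pooled, with at least 200 cells per sample by the series' own description (the study's methods give a larger number). Young mice (2 to 4 months old) gave 4 samples, aged mice (20 to 26 months old) gave 5, and aged HSCs treated with CASIN, an inhibitor of the activity of the RhoGTPase Cdc42, gave 3. The growth protocol given for all samples is 16 h in HBSS with 10% FBS in 3% O2 and 5% CO2 at 37 °C, with 5 µM CASIN in the treated samples, and the labels name no mutation or transgene in any group. The samples keep their replicate numbers (young 2 to 5, aged 0 and 2 to 5, CASIN 1 to 3). Both the young and the CASIN-treated samples were compared with the same 5 aged samples, so these comparisons are not independent of each other.

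Autophagy delivers cytoplasmic material to the lysosome. The ULK kinase complex starts it, a class III PI3-kinase complex marks the site, conjugation enzymes attach ATG8 proteins to the growing membrane, and receptors such as SQSTM1 bring the cargo. In well-fed cells the kinase mTOR, in complex with RPTOR, restrains ULK1 and keeps TFEB out of the nucleus, whereas FoxO factors, which AKT holds in the cytoplasm, activate many autophagy genes. mTOR in complex with RICTOR phosphorylates AKT. In blood stem cells, FoxO factors and autophagy are known to help maintain quiescence and to limit oxidative stress.

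The deposited values are log2 expression values that the authors had brought to one distribution by quantile normalization, so each sample has the same highest value, 16.09. In each sample many genes share its lowest value, here read as not detected. The lowest value differed between samples, from 0.43 to 0.67 in young, from 0.018 to 0.23 in aged and from 0 to 0.63 in CASIN-treated samples. Many genes also shared a value above the lowest. The commonest such value was 4.11 in young 2 (852 genes), 3.59 in young 5 (814 genes), 3.34 in CASIN 1 (784 genes) and 3.03 in CASIN 3 (1032 genes). It was 2.22 in young 3, 1.84 in young 4, 0.22 to 1.36 in aged samples and 0.037 in CASIN 2. Genes at such a value in a sample are not told apart by it. Genes above the lowest value numbered 6078 to 9673 in young samples, 11463 to 17621 in aged samples, and 6845, 20013 and 7288 in CASIN 1, 2 and 3. Counts and sequencing depth were not analysed here. In pooled cells, a smaller number of cells and less RNA per cell cannot be told apart. Of 13 HSC markers, Meis1 alone stood above the lowest value in all 12 samples, whereas Kit and Ly6a, which encode the c-kit and Sca-1 of the sorting gate, were at the lowest value in all 4 young samples. Hlf was above it in 11 samples, among them all 4 young ones, and Mecom, Fgd5 and Mllt3 were above it in 9 samples each. Of 5 T cell markers 3 were above the lowest value in all 12 samples, and the log2 excess over 0.67, the highest of the 12 lowest values, summed over the list came to 15.6 to 20.4 in young, 16.3 to 18.7 in aged and 12.8 to 26.6 in CASIN-treated samples. Itgam was the 1 of 6 myeloid markers above the lowest value in all 12, with summed excesses of 10.1 to 14.9, 7.08 to 12.8 and 11.2 to 15.4. Cd4, a T cell marker, had an unadjusted p under 0.05 in both comparisons with aged samples, where young samples were higher by 2.68 (unadjusted p = 0.00658) and CASIN-treated samples by 3.15 (unadjusted p = 0.00416), and it was above the lowest value in all 12 samples. Lyz2, a myeloid marker, was above the lowest value in 2 young and 1 aged sample (unadjusted p = 0.0391 for young against aged), and Pf4, a megakaryocyte marker, in CASIN 2 alone. The part of these markers in the results was not tested. The 3 beta-globin genes were at the lowest value in all 12 samples.

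How many of the 40 genes were detected differed widely between libraries, as it did for all genes (the map of values by sample). Above the lowest value of their sample stood 59 of 160 values in young samples (36.9%), 151 of 200 in aged samples (75.5%) and 71 of 120 in CASIN-treated samples (59.2%), beside 34.3%, 62.6% and 50.5% over all genes. The young samples had 10, 20, 20 and 9 of the 40 genes above the lowest value, the aged samples had 37, 33, 25, 25 and 31, and the CASIN-treated samples had 17, 40 and 14. Young and aged samples did not overlap in this count, and CASIN 2 stood above every aged sample while CASIN 1 and 3 lay in the range of the young. The share of all genes above the lowest value ran from 27.0% to 42.9% in young and from 50.8% to 78.1% in aged samples and was 30.4%, 88.8% and 32.3% in CASIN 1 to 3 (the plot of both percentages), and its part in the count was not tested.

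**Figure D1:**
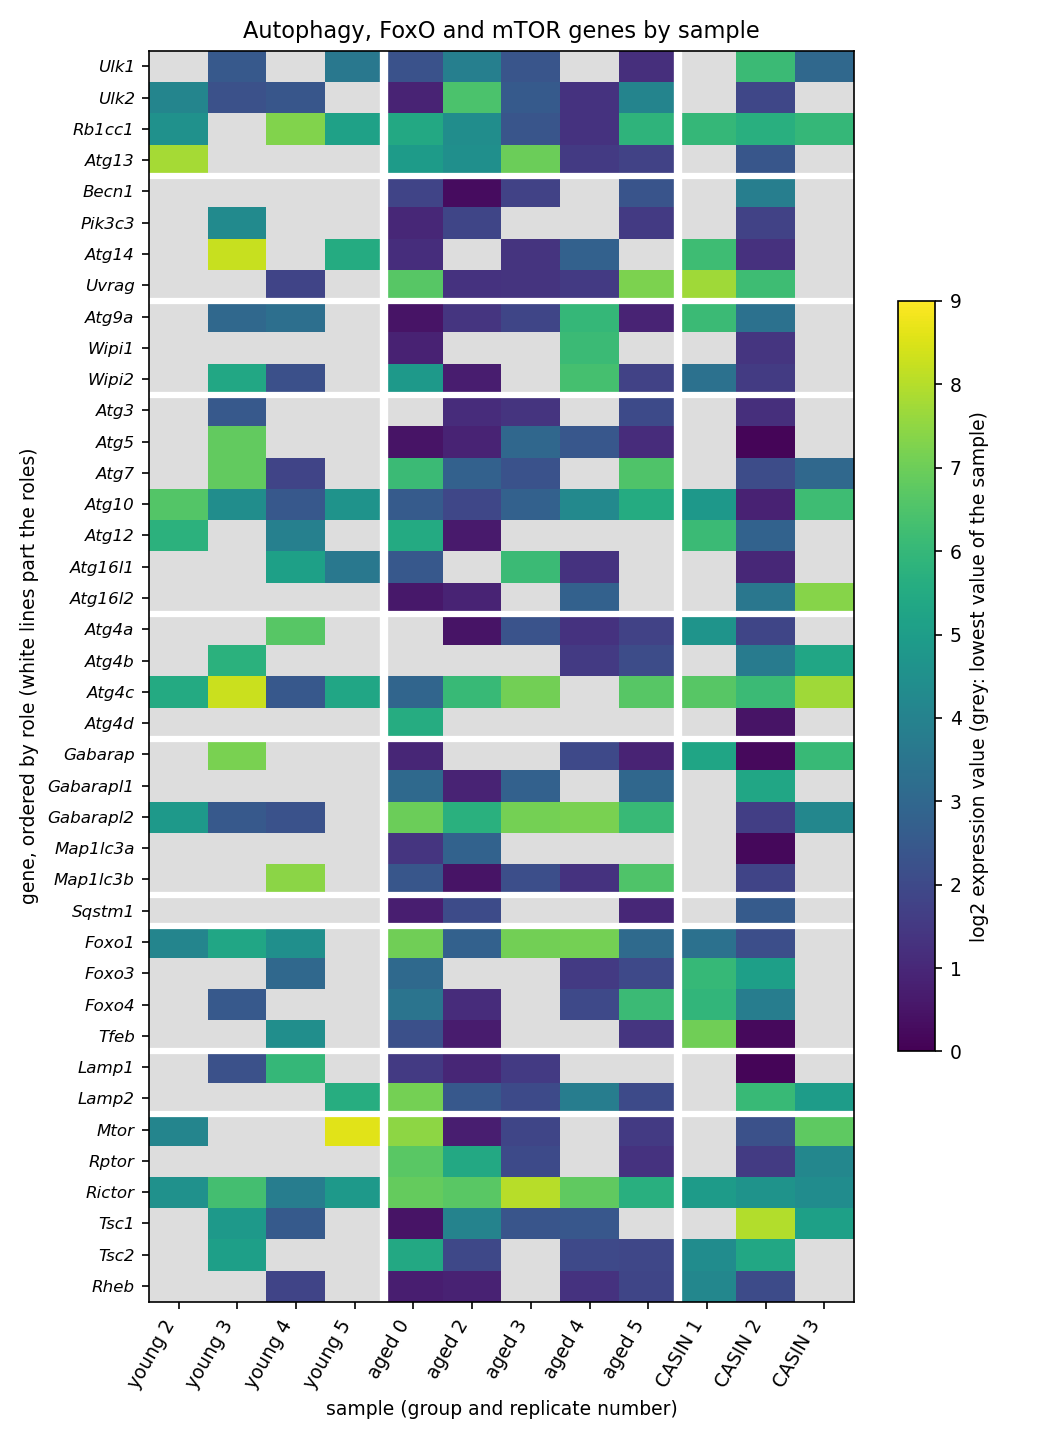
Log2 expression values of the 40 genes (vertical axis, ordered by role, with white lines between roles) in the 12 samples (horizontal axis, in 3 groups). Colour gives the log2 value from 0 to 9 and grey marks the lowest value of a sample. Grey covers at least 20 of the 40 genes in each young column and in CASIN 1 and 3, no gene is grey in CASIN 2, and the Atg10 and Rictor lines are coloured throughout.

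**Figure D2:**
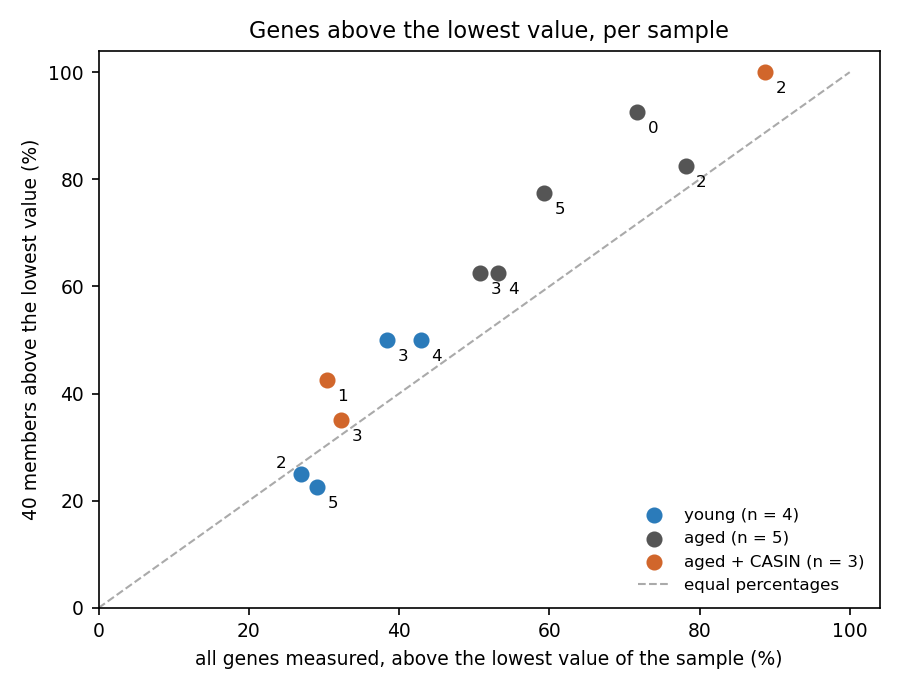
Percentage of the 40 genes above the lowest value of a sample (vertical axis) against the percentage of all 22548 genes above it (horizontal axis), with 1 point per sample, coloured by group and numbered by replicate. The dashed line marks equal percentages. Aged samples lie at 62.5% to 92.5% of the 40 genes, all young samples lie lower on both axes, CASIN 1 and 3 lie among the young at 42.5% and 35.0%, and CASIN 2 lies at the top.

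Of the 40 genes, only Atg10 and Rictor were above the lowest value in all 12 samples (5.0%, beside 9.5% of all genes), and 8 were so in at least 9 samples (20.0%, beside 24.2%). A further 22 were above it in 6 to 8 samples (55.0%, beside 27.2%), 9 in 3 to 5 (22.5%, beside 33.4%), and Atg4d in 2. In all 4 young samples 8 genes were at the lowest value, namely Becn1, Wipi1, Atg16l2, Atg4d, Gabarapl1, Map1lc3a, Sqstm1 and Rptor. That is 20.0% of the 40 genes, beside 34.6% of all genes. Conversely, 3 genes (Atg10, Atg4c and Rictor) were above it in every young sample (7.5%, beside 12.6% of all genes). In every aged sample 12 were above it (30.0%, beside 27.0%), and in every CASIN-treated sample 5 were (12.5%, beside 17.3%), namely Rb1cc1, Atg10, Atg4c, Gabarap and Rictor. Widely expressed genes were undetected in some libraries too, since Hprt, Rplp0 and Vim were at the lowest value in several samples, so a lowest value is not read as absence of a transcript.

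Differences were tested two-sided with limma in 1 fit of the 3 groups over all 22548 genes. With Benjamini-Hochberg adjustment over all genes, none of the 40 genes passed 0.05 in any comparison, and the smallest adjusted p was 0.469 in young against aged HSCs, 0.569 in CASIN-treated against aged HSCs and 0.9995 in young against CASIN-treated HSCs. Of all genes, 4 (0.0177%), 5 (0.0222%) and 0 (0.0%) passed. At an unadjusted p under 0.05, a threshold without correction for multiple tests, 2 of the 40 genes passed in young against aged HSCs, which is 5.0% beside 5.33% of all genes. Both were lower in young HSCs, where 3.2% of all genes were lower and 2.13% higher. In CASIN-treated against aged HSCs 4 passed (10.0%), beside 4.4% of all genes, of which 3 were lower (1.92% of all genes) and 1 higher (2.48% of all genes) in CASIN-treated HSCs. In young against CASIN-treated HSCs 1 passed (2.5%), lower in young, beside 4.29% of all genes in either direction and 2.9% lower. With 40 genes, 1 gene is 2.5% of them, and the share in young against aged HSCs was near the background. The genes were Gabarapl2 and Rictor in young against aged HSCs, the same genes with Foxo1 and Atg16l2 in CASIN-treated against aged HSCs, and Atg16l2 in young against CASIN-treated HSCs. At an unadjusted p under 0.01 Gabarapl2 and Rictor passed in both comparisons with aged HSCs, where the background was 1.34% and 0.927%, and none of the 40 passed in young against CASIN-treated HSCs (background 1.07%).

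Gabarapl2 was the only one of the 40 genes with higher values in every aged sample than in all young and CASIN-treated samples. It encodes a member of the ATG8 family, the small ubiquitin-like proteins that are joined to a lipid of the autophagosome membrane, and lies at chr8:111940703-111953612 on the plus strand (mm10). Its log2 value was 6.98, 5.71, 7.12, 7.20 and 6.07 in aged 0, 2, 3, 4 and 5. It was 4.85, 2.50 and 2.26 in young 2, 3 and 4 and at the lowest value in young 5. Every aged sample lay above every young sample. In the CASIN-treated samples it was at the lowest value in CASIN 1, 1.68 in CASIN 2 and 4.15 in CASIN 3, also below every aged sample.

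The difference in Gabarapl2 was -4.05 (SE 0.90) for young minus aged HSCs, with an unadjusted p of 0.000936 and an adjusted p of 0.469. For CASIN-treated minus aged HSCs it was -4.46 (SE 0.98), with an unadjusted p of 0.000858 and an adjusted p of 0.569. Both sizes rest in part on samples at the lowest value and are differences of log2 values, not measured fold changes. By unadjusted p, Gabarapl2 was ranked 45 and 34 among all genes in these comparisons. Of all genes, 56 (0.248%) stood higher in every aged sample than in every young and every CASIN-treated sample, beside 1 of the 40 (2.5%). Aged samples detected more genes than young samples, CASIN 1 and CASIN 3, and CASIN 2 detected the most of all samples. With the number of detected genes as a covariate in limma, the differences were -4.57 for young (adjusted p = 0.836) and -4.69 for CASIN-treated (adjusted p = 0.378) minus aged HSCs. Young and aged samples did not overlap in that number, so this fit cannot part it from the difference between these groups. The cause of these differences was not tested. Between young and CASIN-treated HSCs the difference was 0.41 (SE 1.02, unadjusted p = 0.695).

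Rictor encodes the subunit that defines mTOR complex 2 and lies at chr15:6708379-6800401 on the plus strand. It was above the lowest value in all samples, with 6.89, 6.71, 8.02, 6.79 and 5.68 in aged 0, 2, 3, 4 and 5. It was 4.55, 6.31, 3.82 and 4.86 in young 2 to 5, and 4.94, 4.62 and 4.39 in CASIN 1 to 3. The CASIN-treated samples lay close together and below every aged sample, whereas young 3 lay above aged 5, so young and aged samples overlapped. Mean Rictor values were 4.89 ± 1.04 (SD, n = 4) for the young group, 6.82 ± 0.83 (SD, n = 5) for the aged group and 4.65 ± 0.27 (SD, n = 3) for the CASIN-treated group. The difference was -1.93 (SE 0.58) for young minus aged HSCs, with an unadjusted p of 0.00696 and an adjusted p of 0.650, and -2.17 (SE 0.63) for CASIN-treated minus aged HSCs, with an unadjusted p of 0.00577 and an adjusted p of 0.948. The former missed an unadjusted 0.05 when samples were centred on the genes detected in all of them (-1.48, unadjusted p = 0.0538) and with a trend in the variance (unadjusted p = 0.0521). Groups did not overlap, with CASIN-treated samples lower, for 1.43% of all genes, and for Gabarapl2 and Rictor among the 40 (5.0%). With young samples lower they did not overlap for 1.61% of all genes, and for Gabarapl2 alone among the 40 (2.5%). No other gene of the 40 had groups without overlap in any comparison, where the background was 0.341% with young above aged, 0.683% with CASIN-treated above aged, and 0.674% and 1.4% with young above and below CASIN-treated samples.

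Foxo1 encodes the FoxO factor that acts in metabolism and in B cell development, and lies at chr3:52268336-52353221 on the plus strand. Its value was 7.04, 2.79, 7.10, 7.11 and 3.11 in aged 0, 2, 3, 4 and 5. In young samples it was 4.11, 5.33 and 4.50 in young 2, 3 and 4 and at the lowest value in young 5, and in CASIN-treated samples it was 3.34, 2.15 and at the lowest value. The 4.11 of young 2 and the 3.34 of CASIN 1 are the commonest values above the lowest in those samples, shared by 852 and 784 genes. Of the aged samples 3 lay near 7 and the other 2 near 3, and both other groups overlapped the lower of these. The difference was -3.41 (SE 1.39, unadjusted p = 0.0329, adjusted p = 0.948) for CASIN-treated minus aged HSCs and -1.78 (SE 1.28, unadjusted p = 0.191) for young minus aged HSCs. Without CASIN 3 the former was -2.68 (unadjusted p = 0.127), and it also missed 0.05 without aged 0, aged 3, aged 4 or CASIN 2 and after centring (-3.06, unadjusted p = 0.0553).

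**Figure D3:**
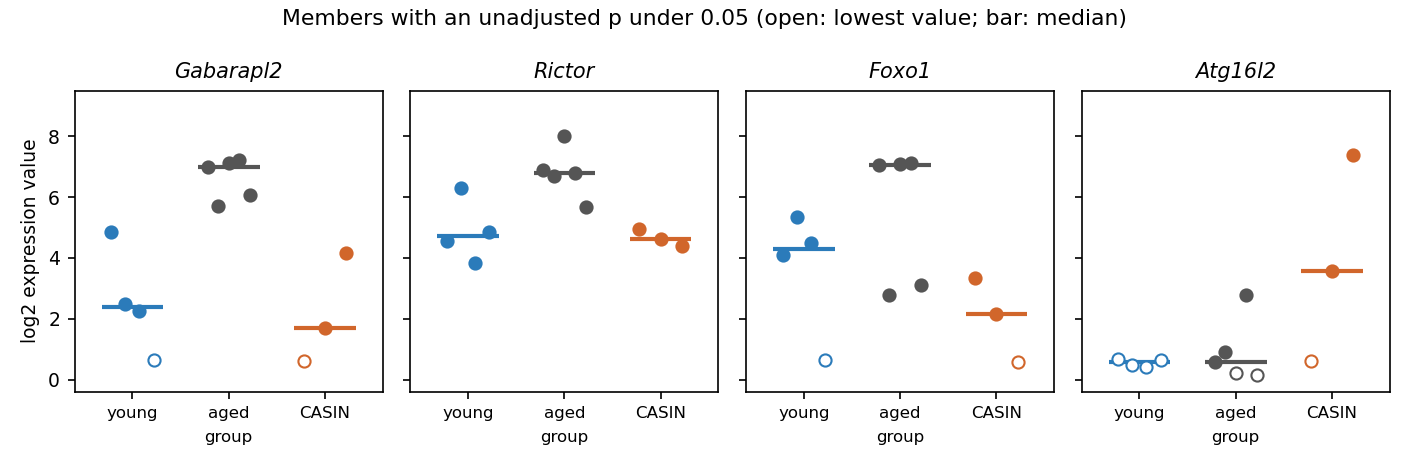
Log2 expression values (vertical axis) of Gabarapl2, Rictor, Foxo1 and Atg16l2 by group (horizontal axis: young n = 4, aged n = 5, CASIN-treated n = 3). Each point is a sample, open points are at the lowest value of their sample and bars are medians. The aged points of Gabarapl2 (5.71 to 7.20) lie above all others, those of Rictor lie above all CASIN-treated points, and Foxo1 and Atg16l2 overlap between groups.

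The promoters of the 3 genes that were lower in CASIN-treated HSCs (Gabarapl2, Rictor and Foxo1, by the unadjusted p) are printed to show what their start sites share. Each is 300 bases of the reference sequence from RefSeq (GRCm38.p6), 250 before and 50 from the transcription start, written 5′ to 3′ on the strand of the gene, which is the plus strand for all 3. The windows are chr8:111940453-111940752 for Gabarapl2, chr15:6708131-6708430 for Rictor and chr3:52268087-52268386 for Foxo1. Capitals mark exact matches, on either strand, to any of 6 motifs searched: CACGTG (the E-box that TFEB can bind), GTAAACA (FoxO), CCGGAAG (ETS factors), GGGCGG (GC box), CCAAT and TGACGTCA (cAMP response element).
Gabarapl2: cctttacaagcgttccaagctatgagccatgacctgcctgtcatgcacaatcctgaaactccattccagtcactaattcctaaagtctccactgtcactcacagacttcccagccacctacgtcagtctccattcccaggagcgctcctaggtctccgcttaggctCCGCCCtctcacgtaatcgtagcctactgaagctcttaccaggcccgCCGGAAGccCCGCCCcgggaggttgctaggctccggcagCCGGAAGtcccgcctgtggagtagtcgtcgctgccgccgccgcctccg
Rictor: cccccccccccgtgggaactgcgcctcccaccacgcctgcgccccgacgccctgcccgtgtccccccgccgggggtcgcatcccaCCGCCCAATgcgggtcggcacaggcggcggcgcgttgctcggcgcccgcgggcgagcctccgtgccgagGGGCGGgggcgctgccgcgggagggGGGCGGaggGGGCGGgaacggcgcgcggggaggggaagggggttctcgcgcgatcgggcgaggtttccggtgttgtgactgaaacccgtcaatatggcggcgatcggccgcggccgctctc
Foxo1: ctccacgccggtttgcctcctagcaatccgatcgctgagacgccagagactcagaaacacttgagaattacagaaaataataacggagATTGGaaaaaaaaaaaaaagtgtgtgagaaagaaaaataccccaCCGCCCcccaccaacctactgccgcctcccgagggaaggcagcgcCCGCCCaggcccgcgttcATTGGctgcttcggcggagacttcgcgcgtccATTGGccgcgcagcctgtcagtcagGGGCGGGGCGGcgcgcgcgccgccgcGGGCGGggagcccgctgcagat
The Gabarapl2 window held 2 ETS matches and 2 GC boxes. In the Rictor window 4 GC boxes and 1 CCAAT were found, of which 1 GC box overlaps the CCAAT. The Foxo1 window held 5 GC boxes, 2 of them overlapping, and 3 CCAAT matches. No E-box, FoxO or cAMP response element match was found in any of the 3, which says only that these letters are not in these windows.

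Promoter windows were found for 33 of the 40 genes, 37 windows in all. GGGCGG was in 26 of them (70.3%), beside 35.7% of all 32851 windows of this length. CACGTG was in 6 (16.2%, beside 7.15%), namely those of Atg14, Atg3, Atg5, Atg7, Lamp1 and Rheb. CCGGAAG was in 4 (10.8%, beside 8.86%), for Atg3, Gabarapl2, Mtor and Tsc2. CCAAT was in 9 (24.3%, beside 37.4%), TGACGTCA in 2 (5.41%, beside 1.79%), for Atg5 and Atg16l2, and GTAAACA in none (0.0%, beside 3.65%). These are counts of letters, and whether the genes with a match moved differently was not tested.

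Among the initiating kinase complex, the kinases Ulk1 and Ulk2, the scaffold Rb1cc1 and the adaptor Atg13 were above the lowest value in 19 of 20 aged values, 9 of 16 young values and 7 of 12 CASIN-treated values. Ulk1, which mTOR and AMPK both phosphorylate, was at 2.50 in young 3 and 3.59 in young 5, the other young samples being at the lowest value. In aged HSCs it was 2.26, 3.89, 2.38 and 1.21 in aged 0, 2, 3 and 5 and at the lowest value in aged 4. It was 6.12 in CASIN 2 and 3.03 in CASIN 3, so the highest value of Ulk1 was in a treated sample, but the 3 groups overlapped (CASIN-treated minus aged 1.27, SE 1.25, unadjusted p = 0.333). Rb1cc1 was near 6 in all 3 CASIN-treated samples (5.67 to 5.99) and ran from 1.30 to 5.86 in aged samples, with a difference of 2.00 (SE 1.44, unadjusted p = 0.192). Ulk2 reached 6.45 in aged 2 and 4.11 in young 2. Atg13 was at 7.79 in young 2, at 1.53 to 6.98 in aged samples and at 2.40 in CASIN 2, and at the lowest value in all other samples.

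Of the PI3-kinase complex, the scaffold Becn1 was at the lowest value in all 4 young samples. It was 1.84, 0.29, 1.78 and 2.34 in aged 0, 2, 3 and 5 and at the lowest value in aged 4, and of the treated samples CASIN 2 alone had a value above the lowest, 3.85. No size is given for Becn1 in young HSCs, and the unadjusted p against aged HSCs was 0.336. The catalytic subunit Pik3c3 was above the lowest value in 1 young, 3 aged and 1 CASIN-treated sample, up to 4.31. Atg14, which directs the complex to autophagy, was at 8.24 in young 3 and 5.55 in young 5 and at most 2.79 in aged samples (young minus aged 2.62, SE 1.71, unadjusted p = 0.153). Uvrag, found in the alternative form of the complex, was at 6.64 and 7.24 in aged 0 and 5, at 7.72 and 6.19 in CASIN 1 and 2, and above the lowest value in young 4 only, at 1.84. For young minus CASIN-treated HSCs the difference in Uvrag was -3.92 (SE 1.93, unadjusted p = 0.067), which did not pass 0.05.

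Of the genes of membrane supply, the lipid scramblase Atg9a and the phosphoinositide binders Wipi1 and Wipi2 reached 5.99, 6.12 and 6.35 in aged 4, and Atg9a was at 6.13 in CASIN 1. Wipi1 was above the lowest value in no young, 2 aged and 1 CASIN-treated sample. None had an unadjusted p under 0.05.

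Conjugation of ATG12 to ATG5, and of ATG8 proteins to lipid, uses the E1-like ATG7, the E2-like ATG10 and ATG3, and the ATG16 scaffold. Atg10, at 6.58, 4.43, 2.48 and 4.64 in young 2 to 5, was 2.58, 1.90, 2.79, 4.24 and 5.55 in aged 0, 2, 3, 4 and 5 and 4.79, 0.87 and 6.19 in CASIN 1 to 3. The groups overlapped throughout, and the differences were 1.12 (SE 1.20, unadjusted p = 0.371) for young and 0.54 (SE 1.30, unadjusted p = 0.688) for CASIN-treated minus aged HSCs. Atg10 was thus measured in every library and did not pass the test.

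Atg5 was at 6.83 in young 3 and at the lowest value in the other young samples. It was 0.48, 0.90, 3.01, 2.46 and 1.16 in aged 0, 2, 3, 4 and 5, above the lowest value in each, and 0.11 in CASIN 2 and at the lowest value in CASIN 1 and 3. Atg5 therefore had its highest value in a young sample and was found in every aged sample, at 3.01 or less (young minus aged 0.54, SE 1.23, unadjusted p = 0.666). Atg7 was at 6.84 in young 3 and 1.84 in young 4, at 6.13, 2.79, 2.25 and 6.53 in aged 0, 2, 3 and 5, and at 2.11 and 3.03 in CASIN 2 and 3, and at the lowest value in the remaining samples. The groups overlapped in Atg7 as well (young minus aged -1.08, SE 1.58, unadjusted p = 0.508). Atg3 stayed at or under 2.50 in all samples. Atg12 was at the lowest value in 3 of 5 aged samples and reached 6.13 in CASIN 1, and Atg16l1 reached 6.15 in aged 3 and was above the lowest value in CASIN 2 alone of the treated samples.

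Atg16l2, the paralog of Atg16l1, lies at chr7:101263034-101302251 on the minus strand. It was at the lowest value in all 4 young samples, in aged 3 and 5 and in CASIN 1. It was 0.58, 0.90 and 2.79 in aged 0, 2 and 4, 3.57 in CASIN 2 and 7.37 in CASIN 3. The difference was 2.93 (SE 1.21, unadjusted p = 0.0346, adjusted p = 0.948) for CASIN-treated minus aged HSCs, and the unadjusted p of young against CASIN-treated HSCs was 0.0248 (adjusted p = 0.9995). Without CASIN 3 the difference from aged HSCs was 1.17 (unadjusted p = 0.216) and the p against young HSCs was 0.123. The unadjusted p against aged HSCs was also above 0.05 without aged 0, 2, 3 or 5 or CASIN 2 (0.0543 to 0.0650), with limma-trend (0.0605), with 2 groups only (0.0753) and with the number of detected genes as a covariate (0.0621). Against young HSCs it was above 0.05 with 2 groups only (0.0685).

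The 4 ATG4 proteases, which process ATG8 proteins before lipidation and release them afterwards, had a positive difference for Atg4a, Atg4b and Atg4c in young minus aged HSCs (0.93, 1.09 and 0.80) and in CASIN-treated minus aged HSCs (1.18, 2.45 and 2.26), and a negative one for Atg4d in both (-0.68 and -0.69). None passed an unadjusted 0.05, and the standard errors of the 4 genes were 1.03 to 1.64. Atg4c was above the lowest value in 11 samples, at 2.48 to 8.26 in young, up to 7.07 in aged and 6.15 to 7.72 in CASIN-treated samples. Atg4d was found in aged 0 (5.58) and CASIN 2 (0.46) only.

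The other members of the ATG8 family did not share the pattern of Gabarapl2 (the plot of the family). Gabarap was at 7.19 in young 3 and at the lowest value in the other young samples, at most 1.97 in aged samples, and 5.28, 0.22 and 6.05 in CASIN 1 to 3. Its difference was 3.03 (SE 1.68, unadjusted p = 0.0997) for CASIN-treated minus aged HSCs, the opposite sign to Gabarapl2. Gabarapl1 was at the lowest value in every young sample and in CASIN 1 and 3, at 0.90 to 3.06 in 4 aged samples, and at 5.33 in CASIN 2. Of the LC3 genes, Map1lc3a was above the lowest value in aged 0 and 2 and in CASIN 2, at no more than 2.85, whereas Map1lc3b was at 7.42 in young 4, at 0.48 to 6.51 in the 5 aged samples and at 1.84 in CASIN 2. In young minus aged HSCs the family had 1 positive and 4 negative differences, and in CASIN-treated minus aged HSCs 2 positive and 3 negative ones. Sqstm1, the receptor p62 that binds ubiquitinated cargo, was at the lowest value in all young samples. It was 0.75, 2.05 and 0.995 in aged 0, 2 and 5 and 2.58 in CASIN 2, and at the lowest value elsewhere, so its values were low wherever it was found (CASIN-treated minus aged 0.41, SE 0.58, unadjusted p = 0.492).

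**Figure D4:**
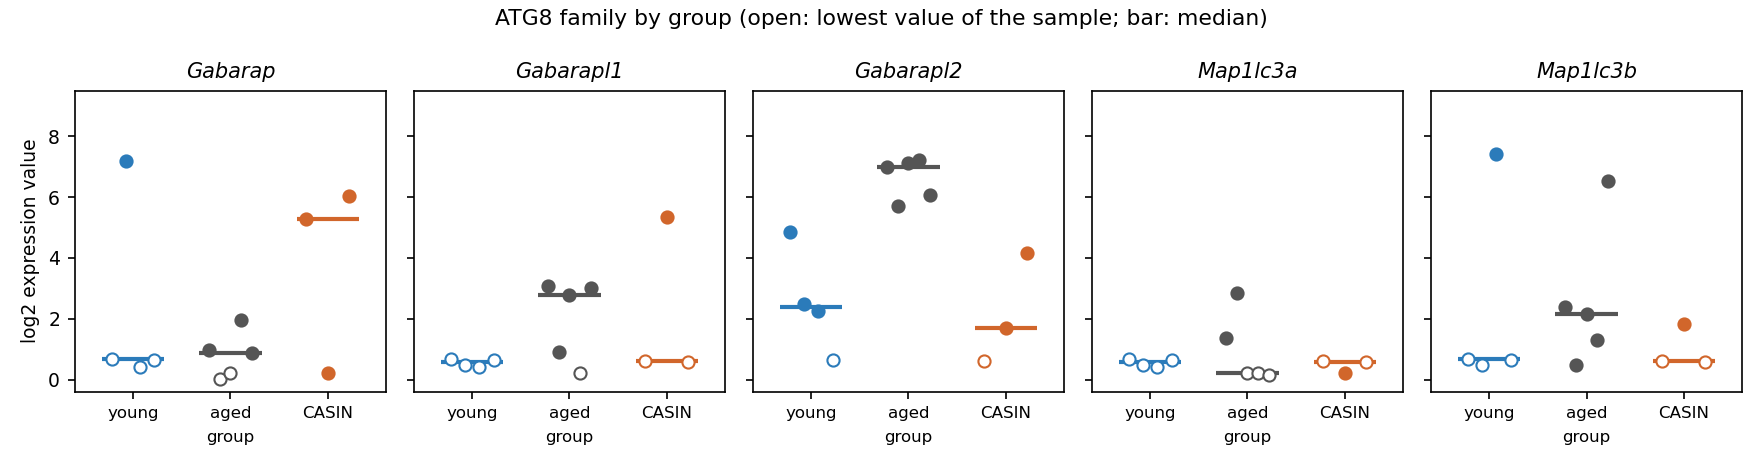
Log2 expression values (vertical axis) of the 5 ATG8 family genes by group (horizontal axis: young n = 4, aged n = 5, CASIN-treated n = 3). Each point is a sample, open points are at the lowest value of their sample and bars are medians. Only for Gabarapl2 do all aged points, 5.71 to 7.20, lie above all other points, and Gabarapl1 and Map1lc3a have open points in every young sample.

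Of the other transcription factors, Foxo3, the FoxO member best known for the maintenance of HSCs, was at 3.03 in young 4 and at the lowest value in the other young samples. It was 3.06, 1.53 and 1.97 in aged 0, 4 and 5 and at the lowest value in aged 2 and 3. It was 6.02 in CASIN 1 and 5.09 in CASIN 2, above every young and aged sample, but at the lowest value in CASIN 3. The difference in Foxo3 was 2.53 (SE 1.21, unadjusted p = 0.062) for CASIN-treated minus aged HSCs, against -3.41 in Foxo1, and neither passed the adjustment.

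Foxo4 was at 2.50 in young 3, at 3.48, 1.16, 1.97 and 6.13 in aged 0, 2, 4 and 5, at 5.93 and 3.82 in CASIN 1 and 2, and at the lowest value in the other samples. Tfeb, the master regulator of lysosomal genes, was at 4.43 in young 4, at 2.21, 0.68 and 1.39 in aged 0, 2 and 5, and at 7.06 in CASIN 1 and 0.21 in CASIN 2, with the others at the lowest value. For both genes the groups overlapped (CASIN-treated minus aged 0.85, SE 1.42, unadjusted p = 0.561, and 1.67, SE 1.5, unadjusted p = 0.291). The lysosomal membrane proteins Lamp1 and Lamp2 had differences of opposite sign in young minus aged HSCs, 1.5 (SE 0.98, unadjusted p = 0.154) and -1.70 (SE 1.54, unadjusted p = 0.292). Lamp2 was above the lowest value in every aged sample (2.02 to 7.12) and in young 5 only of the young samples.

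The genes of mTOR signaling showed no shared direction. Mtor, the kinase of both complexes, was at 4.11 in young 2 and 8.59 in young 5, at 7.48, 0.74, 1.88 and 1.54 in aged 0, 2, 3 and 5, and at 2.23 and 6.78 in CASIN 2 and 3. In young 3 and 4, aged 4 and CASIN 1 it was at the lowest value, so that each group held both high values and undetected samples (young minus aged 1.03, SE 2.06, unadjusted p = 0.627). Rptor, the defining subunit of mTOR complex 1, was at the lowest value in all young samples, at 6.70, 5.43, 2.02 and 1.32 in aged 0, 2, 3 and 5, and at 1.57 and 4.15 in CASIN 2 and 3. The unadjusted p for Rptor in young against aged HSCs was 0.071. Tsc1 and Tsc2, which together inhibit the mTOR activator RHEB, had positive differences of 2.68 (SE 1.60, unadjusted p = 0.122) and 1.14 (SE 1.49, unadjusted p = 0.458) in CASIN-treated minus aged HSCs. Tsc1 was highest in CASIN 2, at 7.97, and Rheb in CASIN 1, at 4.15. Rictor was thus the 1 gene of the 6 with an unadjusted p under 0.05.

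Over the 40 genes, young minus aged differences were positive for 16 and negative for 24, with a median of -0.24 beside -0.017 over all genes (the plot of differences). This split depends on the scaling: it was 24 to 16 with a median of 0.21 after centring on genes detected in all samples, which raised every gene by 0.45, and 21 to 19 with the number of detected genes as a covariate. CASIN-treated minus aged differences were positive for 24 and negative for 16 (median 0.40, beside -0.038 over all genes), and 25 to 15 after centring. It was 18 to 22 without CASIN 2 and 19 to 21 without CASIN 1. Young minus CASIN-treated differences were positive for 18 and negative for 22 (median -0.39, beside 0.092). The median standard error of a single gene's difference was 1.28, 1.40 and 1.46 in these comparisons. The negative differences of Gabarapl2 and Rictor in both comparisons with aged HSCs kept their sign after centring.

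**Figure D5:**
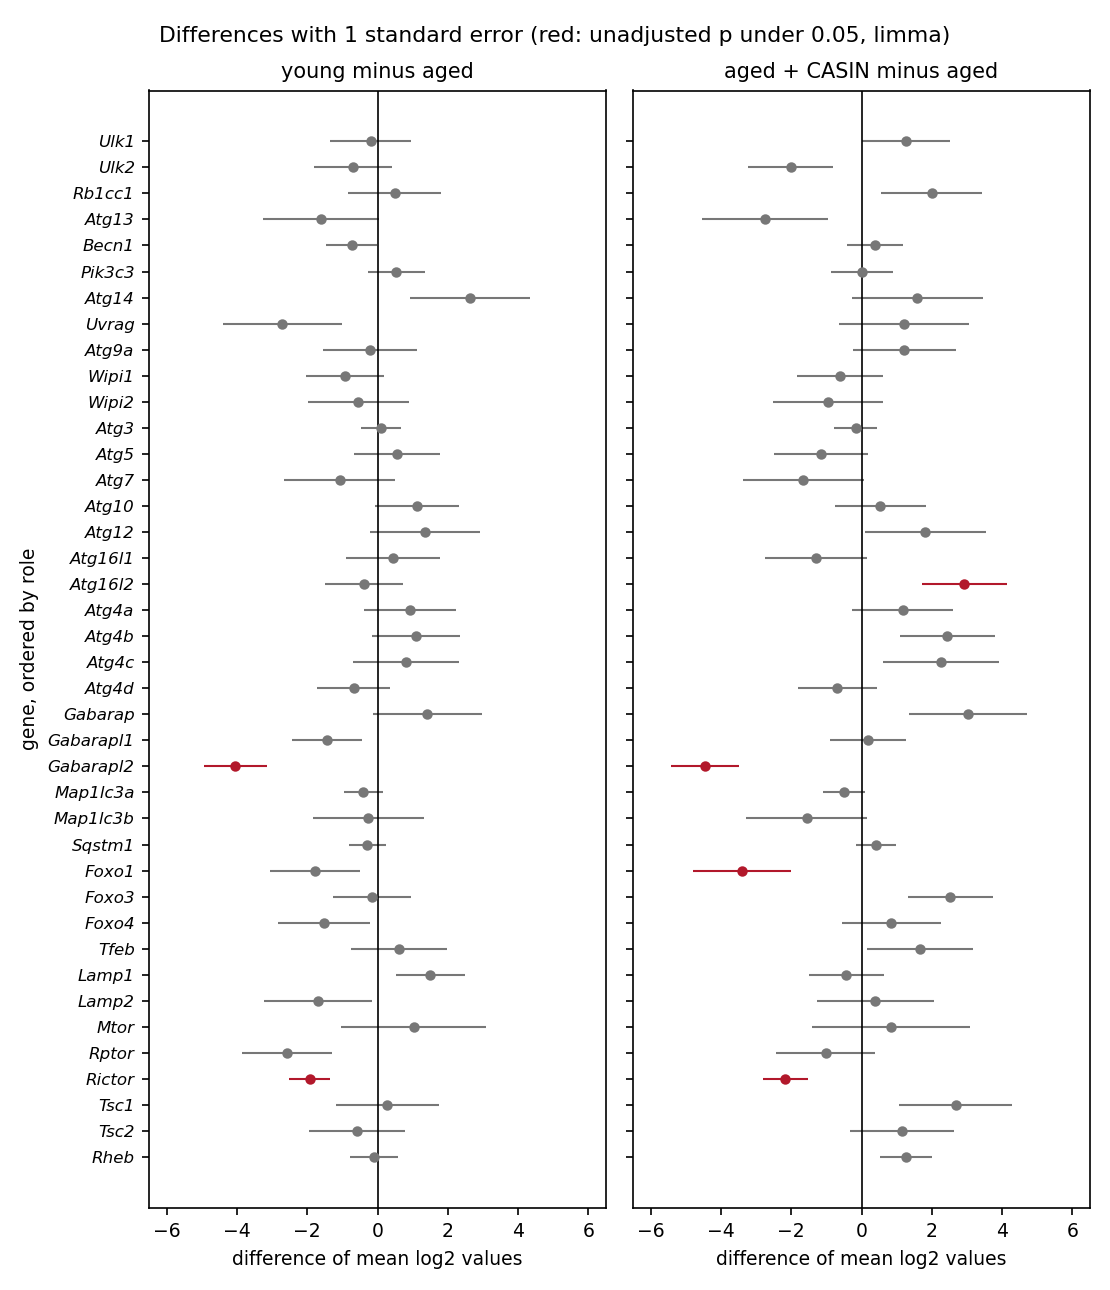
Differences of mean log2 values (horizontal axes) for the 40 genes (vertical axis, ordered by role), young minus aged on the left and CASIN-treated minus aged on the right, each with 1 standard error. Red marks an unadjusted limma p under 0.05. Gabarapl2 and Rictor are red on both sides, at -4.05 and -1.93 on the left and at -4.46 and -2.17 on the right, with Foxo1 (-3.41) and Atg16l2 (2.93) on the right only. Both sides use the same 5 aged samples.

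Beyond the 40 genes, 149 measured genes of 10 further lists of these pathways were looked up in the same fit. An unadjusted p under 0.05 was reached by 4 of them in young against aged HSCs (2.68%, beside 5.33% of all genes), with 1 higher and 3 lower in young. In CASIN-treated against aged HSCs it was 7 (4.70%, beside 4.4%), 4 higher and 3 lower, and in young against CASIN-treated HSCs 7 (4.70%, beside 4.29%), 1 higher and 6 lower in young. None passed the adjustment, so the differences named next rest on unadjusted p-values of 0.0102 to 0.0498. The medians of these genes were -0.13, 0.11 and -0.16.

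Of the other mTOR complex subunits, Deptor, an inhibitor of both complexes, was above the lowest value in all 12 samples, at 7.20, 8.06, 5.12 and 6.65 in young, 8.10 to 8.35 in aged and 7.53 to 8.37 in CASIN-treated samples. It was lower in young than in aged HSCs (-1.42, SE 0.54, unadjusted p = 0.0226, adjusted p = 0.764). All 4 young samples lay below all 5 aged ones, as for 1.61% of all genes, but young 3 (8.06) was only just below aged 2 (8.10). Mapkap1, a subunit of mTOR complex 2, was lower in young than in CASIN-treated HSCs (-3.32). In amino acid sensing at the lysosome, Wdr24, a subunit of the GATOR2 complex, was at the lowest value in all young samples and at 1.46 to 3.97 in aged samples. Rraga, a GTPase that brings mTOR complex 1 to the lysosome, was at 7.12, 4.23 and 8.19 in CASIN 1 to 3 and higher there by the mean than in aged HSCs (3.67). In aged 2 and 5, however, Rraga was at 4.99 and 6.39, above CASIN 2. Its partner Rragc passed in young against CASIN-treated HSCs (-3.17), with 7.03 in CASIN 1, 4.90 in CASIN 2 and the lowest value in CASIN 3.

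Among the upstream kinases, Pik3cd, a catalytic subunit of class I PI3-kinase, was at the lowest value in all young samples and at 1.79 to 6.39 in aged samples. It was at 8.24 in CASIN 1, 1.01 in CASIN 2 and the lowest value in CASIN 3. Pik3cb passed in young against CASIN-treated HSCs, all young samples being at the lowest value. Of all genes, 34.6% were at the lowest value in every young sample. Of the genes of autophagy outside the 40, Ambra1, a regulator of the BECN1 complex, was at 6.24, 6.08 and 8.23 in CASIN 1 to 3, above every aged sample (0.75 to 6.02, difference 3.26). Such a lack of overlap held for 0.683% of all genes, and CASIN 2 (6.08) was only just above aged 3 (6.02). Atg2a, which transfers lipid to the growing membrane, was at 6.82, 3.82, 5.61 and 7.07 in aged 0, 3, 4 and 5 and at the lowest value in aged 2. It was at 0.21 in CASIN 2, with the other CASIN-treated samples at the lowest value (CASIN-treated minus aged -4.20), so the groups overlapped. For fusion with the lysosome, Vps18 was lower (-3.49) in CASIN-treated than in aged HSCs and higher (4.20) in young than in CASIN-treated HSCs, and Vps33a, of the same tethering complexes, was lower (-4.60) in young than in CASIN-treated HSCs.

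Of the lysosomal genes, Atp6ap1, an accessory subunit of the proton pump, alone passed 0.05, being higher in young than in aged HSCs (2.80). Of 22 FoxO target genes outside the 40, Trim63, a ubiquitin ligase known from muscle, alone passed, in CASIN-treated minus aged HSCs (-2.26). It was at the lowest value in CASIN 1 and 3 (0.63 and 0.58) and at 0.14 in CASIN 2. In aged samples it ran from 0.48 in aged 0 to 4.62 in aged 5, so the groups overlapped. Of 10 mTOR targets, the translation initiation factor Eif4g1 passed in both comparisons with CASIN-treated HSCs, where CASIN 3 was at 7.55, CASIN 2 at 3.31 and CASIN 1 at the lowest value. No gene of the cargo receptor list and none of the 4 further TFEB-related regulators passed in any comparison.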

How the data were processed

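RNA-seq of 4 young, 5 aged and 3 aged CASIN-treated HSC samples was analysed, grouped by the sample labels. Libraries were made from pooled sorted cells with the Ovation Single Cell RNA-Seq System. The authors trimmed and filtered the reads with trim galore (phred above 20), aligned them to mm10 with TopHat and used Cufflinks. The authors deposited log2 expression values, quantile normalized, for 22548 genes. The step from Cufflinks to these values is not given in the sources used here. Quantile normalization removes differences in total RNA, and ties give each sample its own lowest value. No counts were analysed, so depth and counting error are unknown.

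The values were used as deposited, without a filter, in limma 3.58.1 (R 4.3.3, lmFit and eBayes, 12 samples, 3 groups), with Benjamini-Hochberg adjustment over all genes. Summaries were made with Python 3.11.15 and pandas 2.3.3 and figures with matplotlib 3.10.9. The study's methods describe the samples as biological repeats, made on different days from different mice. No 2 samples were close to identical (highest correlation 0.638). The labels give no batch. The 40 genes, the further lists and the markers were chosen with earlier results of these data known. The motifs and the widely expressed genes were chosen after the values were seen. Values in every sample are given for genes with an unadjusted p under 0.05, with groups that do not overlap, detected in all samples, and for 10 genes chosen for their role. Genes outside the 40 are named where they belong to a list and have an unadjusted p under 0.05, although not all of them are reported here. Non-overlap was counted after raising all values under 0.67 to that value. Positions are from GENCODE M21 (mm10) and promoters from RefSeq (GRCm38.p6).

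The following were tried as alternatives: the same lowest value for all samples, samples centred on the genes detected in each of them, filters (detection in 6 or more samples, a mean of 3 or more), a pseudocount of 0.1 (which supposes that the deposited values hold 1), limma-trend, array weights, 2 groups at a time, the number of detected genes as a covariate, a replicate block, and single samples left out.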

Additional observations from a re-analysis of the deposited data

Results flagged for a closer look

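Within the young or the aged group, 1 sample stood far from the others by Dixon's criterion in 24 of 72 groups of values tested, for 22 of the 40 genes. Chance flags about 1 in 20 groups when values are continuous, and in 16 of the 24 all other samples of the group were at their lowest value, so that 1 detected sample sufficed. The criterion was not applied to the 3 CASIN-treated samples.

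Among young samples, young 2 stood apart in Atg13 (7.79). Young 3 did so in Gabarap (7.19), Atg5 (6.83), Atg4b (5.76), Tsc2 (5.07), Pik3c3 (4.31), Atg3 (2.50) and Foxo4 (2.50). The ATG8 gene Gabarap and the conjugation gene Atg5 thus had their highest young values in the same library. Young 4 stood apart in Map1lc3b (7.42), Atg4a (6.65), Tfeb (4.43), Foxo3 (3.03), Uvrag (1.84) and Rheb (1.84), the value of 1.84 being the one that 848 genes share in that sample. Young 5 stood apart in Lamp2 (5.59).

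Among aged samples, aged 0 stood apart in Mtor (7.48), Atg4d (5.58), Atg12 (5.51) and Tsc2 (5.44). Aged 4 did so in Wipi1 (6.12), Atg9a (5.99), Atg16l2 (2.79) and Gabarap (1.97), and aged 2 in Sqstm1 (2.05). For Atg16l2 this is the highest control value of a gene that was higher in CASIN-treated HSCs by the unadjusted p. Neither Gabarapl2 nor Rictor held a sample that stood apart in this way.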

How the results depend on the processing

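The differences of Gabarapl2 and Rictor from aged HSCs kept their sign under all 22 alternatives. Gabarapl2 had an unadjusted p under 0.05 in each (0.000174 to 0.00795 for young, 0.000249 to 0.0217 for CASIN-treated HSCs), with values of -4.81 to -3.41 and -5.46 to -3.70 when single samples were left out, and its adjusted p was at least 0.157 and 0.216. Rictor kept an unadjusted p under 0.05 in CASIN-treated HSCs (0.00254 to 0.0455). In young HSCs it did not after centring (-1.48) or with limma-trend (-1.93), and with single samples left out it ran from -2.40 to -1.57. The cause was not tested.

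For young against aged HSCs, 2 of the 40 passed an unadjusted 0.05, and 1 did after centring and with limma-trend. In CASIN-treated against aged HSCs it was 4 and ran from 2 (without aged 3) to 6 when samples were left out. In young against CASIN-treated HSCs it was 1, Atg16l2, and became 0 in 2 groups only. It was also 0 with genes detected in at least 6 samples and with a mean of at least 3. Both of these filters left Atg16l2 out before the test, so they say nothing about it. In young against CASIN-treated HSCs the count ran from 1 to 4 when samples were left out. It was 3 without young 3, 2 without young 4 or CASIN 1 and 4 without CASIN 3.

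Over all genes, 4 passed the adjustment in young against aged HSCs and 5 in CASIN-treated against aged HSCs. Both became 2 with either filter, the pseudocount of 0.1 and limma-trend. With the detection covariate they were 2 and 9. In young against CASIN-treated HSCs the count was 0 (968 genes at an unadjusted p under 0.05) and became 3 with a common lowest value, 2 with array weights, 5 in 2 groups only and 7 with the detection covariate. When single samples were left out the counts ran from 2 to 16 (without young 5), 2 to 51 and 0 to 45 (both without CASIN 2).

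Deviations from the group means had small correlations, -0.033 to 0.0576 in 8 same-numbered pairs and -0.0469 to 0.0332 in 39 other pairs. The highest was that of aged 2 with CASIN 2. The numbers were not taken as pairs, although such small values cannot exclude pairing. With the replicate number as a block (replicate block), 2, 1 and 0 of all genes passed, and 3, 5 and 2 of the 40 passed an unadjusted 0.05. The number of samples, the lowest values and the unknown depth limit all of these results.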
